A study of Mus musculus with 20 samples.

Results

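The neurotrophins and their receptors were followed here through 6 genes, Bdnf, Ntf3, Ntrk2, Ntrk3, Ngfr and Sort1, in mouse dorsal root ganglion (DRG) cultures that were fired electrically in different temporal patterns. The members were all probes whose gene name, in the newer of the array annotations, was one of these symbols. There were 13 such probes among 39429 probes that were not controls. Of the 13, 7 met the spot filter in all 20 samples, 3 met it only in all samples of at least 1 condition, and 3 met it in neither way. A spot met the filter when its signal was at least 2 times the local background and it was not marked as non-uniform.

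Neurotrophins are secreted growth factors that keep sensory neurons alive and shape their axons and synapses. Brain-derived neurotrophic factor (Bdnf) acts through the receptor tyrosine kinase TrkB (Ntrk2), and neurotrophin-3 (Ntf3) acts mainly through TrkC (Ntrk3). In both receptor genes alternative splicing gives a full-length form with an intracellular kinase and truncated forms that lack it. The p75 receptor (Ngfr) binds all neurotrophins and, together with sortilin (Sort1), binds their uncleaved precursors. In embryonic DRG, TrkB and TrkC mark mainly mechanosensory and proprioceptive neurons, and truncated receptors are also made by glia.

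Cultures came from NIH Swiss embryos of day 13.5. All of them, the unstimulated ones included, were raised with an antimitotic drug against non-neuronal cells, and were moved overnight into medium without serum before the experiment. Stimulated cultures received 18 action potentials every 1 min (18/1) or 90 every 5 min (90/5), by 6 V biphasic pulses of 0.2 ms, for 2 hr or 5 hr. Both patterns thus gave equal numbers of action potentials over time, and unstimulated dishes were handled alike without current. Each condition was made from 5 pooled cultures, which limits how far the 4 samples of a condition stand for separate cultures, so that p-values measure the spread between these samples. The protocol in the labels names the spinal cord as the tissue dissociated, whereas the cell type given is DRG neurons. All 12 sensory neuron markers examined (among them Prph, Isl1, Pou4f1 and Scn9a) were well above background in every sample. The motor neuron marker Mnx1 was well above background only in the samples of 90/5 5 hr, and Chat in no sample of 2 conditions but in all 4 samples of 18/1 5 hr.

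The 20 samples were hybridized as pairs on 10 arrays of 3 slides. Slide 1 held the unstimulated and the 18/1 2 hr samples, slide 2 the 18/1 5 hr and the 90/5 2 hr samples, and slide 3 the 90/5 5 hr samples. Only 2 comparisons therefore lay within a slide, and in all others slide and condition cannot be told apart. Slide 2 stood apart: the scanner software called up to 14642 spots of a sample non-uniform there, against at most 36 on slide 1 and 85 on slide 3, and 840 to 2800 spots were saturated. Differences also followed the GC content of the probes. The median log2 difference of 18/1 5 hr from unstimulated cultures was 0.24 over 5361 probes with at most 40% GC and -0.95 over 2125 probes with at least 50% GC, and Pearson's r with GC over the 12137 probes was -0.44. This r was -0.35 in 90/5 2 hr, in 18/1 2 hr -0.05 and in 90/5 5 hr 0.19. Fits with the GC trend removed from each sample are therefore given beside the called differences of the members. Of 5 activity genes examined, Fos, Npas4 and Nr4a1 lay above all unstimulated samples in every stimulated sample: Fos was between 7.15 and 7.30 (log2 signal) in the unstimulated samples and between 10.08 and 12.09 in the stimulated ones, Npas4 between 7.12 and 7.72 and between 11.42 and 14.22, and Nr4a1 between 7.99 and 8.80 and between 12.43 and 14.24. Egr1 and Arc also lay above the unstimulated samples in the other 3 stimulated conditions, but overlapped them in 18/1 5 hr. Egr1 was 7.91 to 10.67 there against 7.84 to 8.63, and Arc 10.03 to 10.76 against 9.71 to 10.47. Of the 3 activity genes that could be tested, 1 was called in 18/1 5 hr.

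Which transcript form a probe reads is fixed by its sequence, so the 4 probes that tell the receptor forms apart, or fail to, are shown here 5′ to 3′ as spotted, all within coding sequence. The first lies in the part of TrkB around the membrane that full-length and truncated receptors share (chr13:58979563-58979622, mm9, plus strand). The second lies in the kinase activation segment of TrkC (chr7:85392044-85392103, minus strand), with the codons of the conserved DFG motif in capitals. The third covers the C-terminal end of full-length TrkC (chr7:85337455-85337514, minus strand), with the codon of the tyrosine that docks phospholipase C gamma in capitals. The fourth covers the end of the short tail that is found only in truncated TrkC (chr7:85447515-85447574, minus strand), with the stop codon in capitals.
Ntrk2 shared, A_55_P2006792: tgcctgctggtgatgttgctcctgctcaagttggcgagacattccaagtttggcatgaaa
Ntrk3 activation segment, A_55_P2056533: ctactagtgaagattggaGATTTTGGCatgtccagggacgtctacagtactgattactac
Ntrk3 C-terminal end, A_66_P118329: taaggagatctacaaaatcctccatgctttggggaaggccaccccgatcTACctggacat
Ntrk3 truncated tail, A_55_P2006808: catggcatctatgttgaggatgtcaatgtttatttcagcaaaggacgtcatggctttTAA

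The other 9 probes were 60 bases long as well and lay mostly in 3′ UTRs. The Bdnf probe A_55_P2036303 (chr2:109566961-109567020, plus strand) lay in the last exon, common to all Bdnf transcripts, and could not show which promoter was used. The Ntf3 probe was A_55_P2021565 (chr6:126051431-126051490, minus strand) and the Ngfr probe A_52_P236448 (chr11:95430211-95430270, minus strand), which was spotted 10 times per array. Ntrk2 had a full-length 3′ UTR probe, A_51_P393454 (chr13:59230936-59230995, also 10 spots), and a truncated 3′ UTR probe, A_65_P04961 (chr13:59038046-59038105). The truncated form of Ntrk3 had a second probe in its 3′ UTR, A_52_P500274 (chr7:85445908-85445967). Sort1 had a 3′ UTR probe, A_52_P590396 (chr3:108164349-108164408), a coding probe across a splice junction, A_51_P517145 (chr3:108157150-108159198), and a probe for another transcript that lies between the ends of that junction, A_55_P2076683 (chr3:108158404-108158463).

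**Figure D1:**
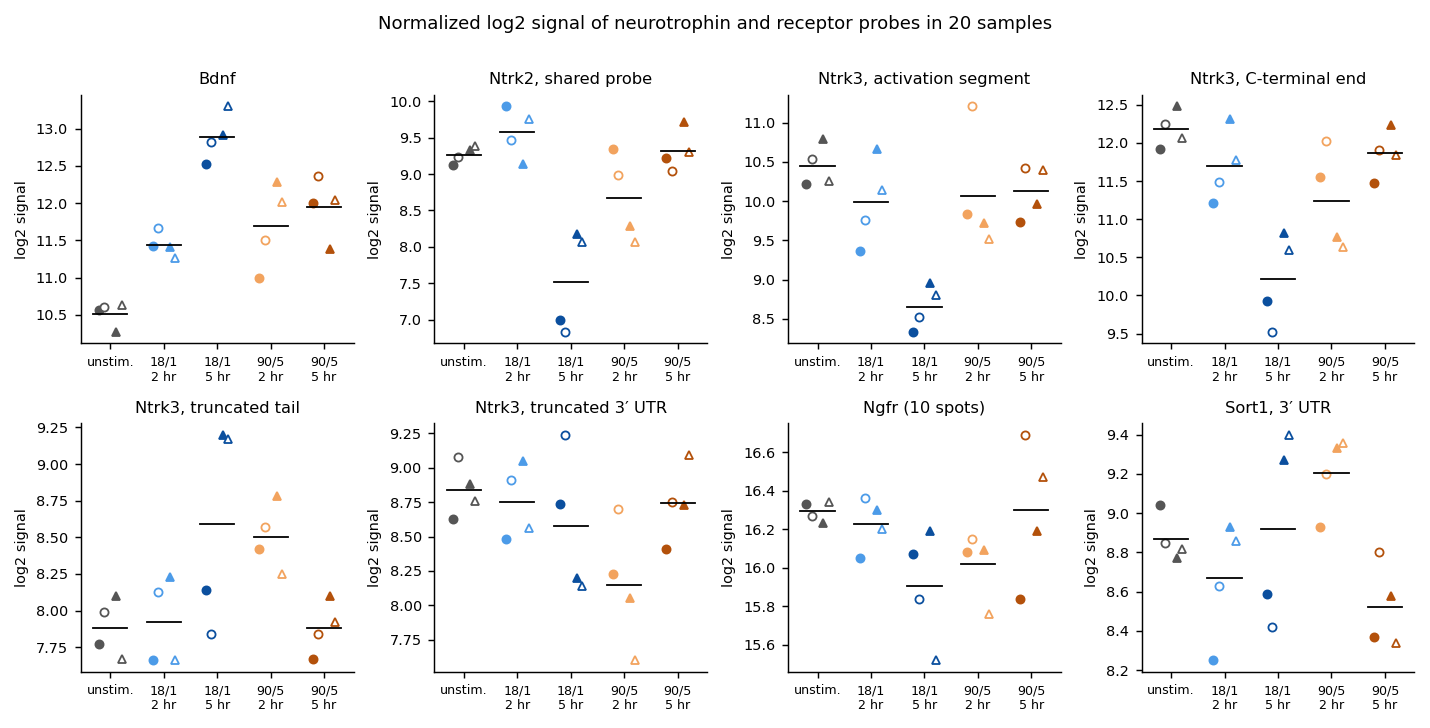
Normalized log2 signal (vertical axes, each with its own range) of 8 probes in the 5 conditions (horizontal axes); circles and triangles are the 2 arrays of a condition, filled symbols Cy3 and open symbols Cy5, and bars are means of 4 samples. The 4 samples of 18/1 5 hr lie above all unstimulated samples for Bdnf and below them for Ntrk2 and both kinase probes of Ntrk3, while the 2 arrays of that condition stand apart for several probes.

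The calls of the 7 probes that met the filter in all samples are counted first. A probe was called when its adjusted p in limma was under 0.05, with Benjamini-Hochberg adjustment over all 12137 probes. In 18/1 5 hr against unstimulated cultures 4 of 7 were called, 1 higher and 3 lower, where 44.9% of all probes were called. Against unstimulated cultures, 90/5 2 hr had 1 of 7 called, beside 6.00% of all probes. In 18/1 2 hr and in 90/5 5 hr none of the 7 was called at adjusted p, and 1 of 7 in each had an unadjusted p under 0.05. Few probes passed at all in those comparisons, 0.0165% and 0.0577%. Between the patterns, 4 of 7 were called at 5 hr (3 higher and 1 lower in 90/5) against 45.9% of all probes, and none of 7 at 2 hr against 4.62%, with 1 of 7 at an unadjusted p under 0.05. Between 5 hr and 2 hr, 4 of 7 were called in 18/1 (1 higher, 3 lower) against 44.8%, and none of 7 in 90/5 against 8.06%, again with 1 of 7 at an unadjusted p under 0.05. In 90/5 2 hr against 18/1 5 hr, both on slide 2, 3 of 7 were called against 13.8%, a larger share than that of all probes, but a number that ran from 0 to 5 with arrays or samples left out. The interaction of pattern and time was called for 4 of 7 probes against 45.0% of all probes. In the comparisons with 4 of 7 called, the number was thus near the share of all probes. The 7 include the Ngfr probe, which was saturated in 12 samples. None of the 3 probes that met the filter only in at least 1 condition was called in any comparison with all samples fitted. In their fit 0.0167% (18/1 2 hr) to 38.2% (between patterns at 5 hr) of the 23905 probes were called, and 37.0% in 18/1 5 hr.

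Bdnf, the ligand of TrkB and a well known activity-induced gene, was higher in all 4 stimulated conditions than in the unstimulated cultures. Its log2 signal in the unstimulated samples was 10.56, 10.60, 10.27 and 10.63, against 12.52, 12.82, 12.92 and 13.30 in 18/1 5 hr. All 4 samples of 18/1 5 hr thus lay above all unstimulated ones, and above every other sample of the series. The log2 difference was 2.37 ± 0.30 (SE, n = 4 and 4), a 5.18-fold rise with an adjusted p of 8.89e-06 in limma.

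The Bdnf signals of 90/5 2 hr were 11, 11.51, 12.28 and 12.01, a rise of 2.27-fold (log2 1.19 ± 0.30, limma adjusted p = 0.0216, and 1.02 with the GC trend removed, limma adjusted p = 0.0200). In 90/5 5 hr they were 12, 12.36, 11.39 and 12.04, and in 18/1 2 hr 11.43, 11.66, 11.41 and 11.26. Neither group overlapped the unstimulated samples, yet neither passed the adjusted threshold. For 90/5 5 hr the log2 difference was 1.43 (95% interval 0.81 to 2.06), with an unadjusted p of 9.87e-05 and a limma adjusted p of 0.117. For 18/1 2 hr it was 0.92 (0.30 to 1.55), with an unadjusted p of 0.00562 and an adjusted p of 1 in limma. Both passed when only the conditions compared were fitted, with limma adjusted p of 0.0208 and 0.0252, and the second of these fits lay within slide 1. The 90/5 5 hr difference stayed at 1.43 and passed when array 5, 6, 7 or 8 was left out (limma adjusted p between 0.00924 and 0.0284) and without slide 2 (limma adjusted p = 0.00164). It was 1.51 and passed with the GC trend removed (limma adjusted p = 0.0116).

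By pattern and time, Bdnf rose further between 2 hr and 5 hr of 18/1, by 1.45 ± 0.30 on the log2 scale (limma adjusted p = 0.000759). Between 2 hr and 5 hr of 90/5 the log2 difference was 0.25 (95% interval -0.38 to 0.87, limma adjusted p = 0.68). At 5 hr the signal was 1.92-fold lower in 90/5 than in 18/1 (log2 -0.94 ± 0.30, limma adjusted p = 0.0145), and at 2 hr the patterns overlapped (log2 0.26, limma adjusted p = 0.677). The interaction was -1.20 ± 0.43 (limma adjusted p = 0.0256), and it ran from -1.31 to -0.76 and lost its call when array 3, 4, 6, 8 or 10 was left out (limma adjusted p between 0.0532 and 0.124). With the GC trend removed the rise in 18/1 5 hr was 2.06 (limma adjusted p = 8.45e-06) and that from 2 hr to 5 hr of 18/1 1.12 (limma adjusted p = 0.00207), whereas the pattern difference at 5 hr became -0.55 (limma adjusted p = 0.094) and the interaction -0.64 (limma adjusted p = 0.17). Leaving out array 6 or array 10 gave a pattern difference at 5 hr of -0.72 or -0.71, with limma adjusted p of 0.0661 and 0.157. Over 17 other settings this difference ran from -0.95 to -0.32, and its call was lost in 5 of them. The rise in 90/5 2 hr was 0.74 without array 8 (limma adjusted p = 0.249), and between 1.12 and 1.25 without array 1, 2 or 3 (limma adjusted p = 0.197, 0.256 and 0.0533). On slide 2, Bdnf was lower in 90/5 2 hr than in 18/1 5 hr (log2 -1.19, limma adjusted p = 0.0159, and -1.04 with the GC trend removed, limma adjusted p = 0.0205), without overlap, but the limma adjusted p was 0.335 in a fit of that slide alone, and without array 7 the difference was -0.75 (limma adjusted p = 0.235).

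Bdnf is transcribed from several alternative start sites, and RefSeq (GRCm38.p6) lists 7 windows of 250 bases before to 50 bases after a start. The cAMP response element, TGACGTCA, and its shorter core TGACG, which every full element also holds, were searched on both strands of the 250 upstream bases. The full element was in none of the 7 Bdnf windows and in 1.55% of 32851 windows of all genes. The core was in 1 of the 7, the third in order along the chromosome, and in 17.8% of all windows. The last 100 bases before that start are shown because this is the only Bdnf window with a match (chr2:109692336-109692435, GRCm38.p6, plus strand), with the match, read on the minus strand, in capitals.
Bdnf upstream: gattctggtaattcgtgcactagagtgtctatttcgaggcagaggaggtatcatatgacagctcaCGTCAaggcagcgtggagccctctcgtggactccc
The match begins 35 bases before the start site. It is a description of the letters, and the Bdnf probe could not tell transcripts of this start from others.

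Ntf3, the ligand of TrkC, was not well above background in any sample. Its log2 signal ran from 6.38 to 6.91 over all 20 samples. The spot reached 2 times the local background in 4 samples, 2 each of 18/1 5 hr and 90/5 2 hr, where the ratio went up to 4.23 but the scanner software's own criterion was still not met. Group means were between 6.56 and 6.68, so no fold is given.

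Ntrk2, read by the probe that full-length and truncated TrkB share, was lower in 18/1 5 hr than in the unstimulated, the 18/1 2 hr and the 90/5 5 hr cultures. It was well above background in 18 of the 20 samples, and the exceptions were both samples of array 5, in 18/1 5 hr. Its log2 signals were 9.12, 9.23, 9.33 and 9.39 in the unstimulated samples and 7, 6.83, 8.17 and 8.07 in 18/1 5 hr. The 4 samples of 18/1 5 hr lay below all unstimulated ones and formed a pair per array, with array 5 below array 6. The log2 signal fell by 1.75 ± 0.36 (SE, n = 4 and 4), with an adjusted p of 0.000635 in limma. Array 5 entered this value with signals not well above background, and without it, with array 6 alone, the difference was -1.16 (limma adjusted p = 0.014).

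The other conditions overlapped the unstimulated samples for this probe. The log2 difference was 0.30 in 18/1 2 hr (95% interval -0.44 to 1.05), -0.60 in 90/5 2 hr (-1.35 to 0.14) and 0.05 in 90/5 5 hr (-0.69 to 0.79). The 90/5 2 hr value joins 2 arrays that stood apart, with means of 9.17 on array 7 and 8.17 on array 8. Without array 7 it was -1.10 and called (limma adjusted p = 0.0389), and without array 8 it was -0.10 (limma adjusted p = 0.979). The signal in 90/5 5 hr was higher than in 18/1 5 hr by 1.81 on the log2 scale (limma adjusted p = 0.000443), by 1.21 without array 5 (limma adjusted p = 0.0101) and by 0.97 with the GC trend removed (limma adjusted p = 0.0233). Within 18/1 the difference from 2 hr to 5 hr was -2.06 (limma adjusted p = 0.000171), -1.46 without array 5 (limma adjusted p = 0.00383) and -1.33 with the GC trend removed (limma adjusted p = 0.0033). The interaction was 2.71 ± 0.51 (limma adjusted p = 0.000255), 2.11 without array 5 (limma adjusted p = 0.000976) and 1.63 with the GC trend removed (limma adjusted p = 0.00847).

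The probe had 50% GC, and with the GC trend removed the difference in 18/1 5 hr was -0.99 (limma adjusted p = 0.0202). Against 90/5 2 hr, on the same slide, it was called in the fit of all conditions (log2 1.15 ± 0.36 higher in 90/5 2 hr, limma adjusted p = 0.0377). In a fit of the samples of slide 2 alone the same difference had a limma adjusted p of 0.335, and with the GC trend removed it was 0.67 (limma adjusted p = 0.182). It was 0.55 without array 5 and 0.66 without array 7, with limma adjusted p of 0.337 and 0.432, and the call was also lost without array 1, 2, 3, 4, 9 or 10, at 1.15 (limma adjusted p between 0.0526 and 0.0716).

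The form-specific probes of Ntrk2 were dim. The full-length 3′ UTR probe ran from 6.64 to 7.71. At least 1 of its 10 spots was well above background in 18 of 20 samples, but all 10 were in only 7, and in the samples of 18/1 5 hr 2 or 3 were. All its spots reached 2 times background in only 2 samples. Its 18/1 5 hr values lay between 6.64 and 6.89, below all unstimulated samples (6.95 to 7.30), with a log2 difference of -0.32 (95% interval -0.77 to 0.12, limma adjusted p = 0.246 in the fit of 23905 probes). Most of the spots behind the 18/1 5 hr values were not well above background. The difference had the other sign, 0.22, with the GC trend removed. The truncated 3′ UTR probe ran from 6.33 to 6.99 and was well above background in 3 samples, so the truncated form could not be followed.

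Ntrk3, the TrkC gene, was called lower in 18/1 5 hr with both kinase probes and was not called with the truncated-form probes, all samples fitted. Both kinase probes fell in 18/1 5 hr. The activation segment probe read 10.22, 10.54, 10.79 and 10.26 in the unstimulated samples and 8.33, 8.52, 8.96 and 8.80 in 18/1 5 hr, and the groups did not overlap. Its log2 signal fell by 1.80 ± 0.44, or 3.49-fold (limma adjusted p = 0.0025). The C-terminal probe read 11.92, 12.25, 12.48 and 12.06 in the unstimulated samples and 9.93, 9.52, 10.82 and 10.60 in 18/1 5 hr, again without overlap. It fell by 1.96 ± 0.39, or 3.89-fold (limma adjusted p = 0.000495).

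With the GC trend removed the 2 drops were -1.49 and -1.20, with limma adjusted p of 0.00794 and 0.00903. In 90/5 5 hr both kinase probes overlapped the unstimulated samples, with log2 differences of -0.33 (95% interval -1.24 to 0.58) and -0.31 (-1.12 to 0.49). The differences in 90/5 2 hr were -0.39 (-1.30 to 0.53) and -0.93 (-1.74 to -0.12), and neither passed (limma adjusted p = 0.652 and 0.157). The C-terminal probe had means of 11.78 on array 7 and 10.71 on array 8. Its difference was -1.47 and called without array 7 (limma adjusted p = 0.0106), and -0.39 without array 8 (limma adjusted p = 0.868). It also passed without the array block, with array quality weights and by the methods' t-test before adjustment. In 18/1 2 hr they were -0.47 (-1.38 to 0.44) and -0.48 (-1.29 to 0.33), with arrays 3 and 4 apart (C-terminal probe 11.21 and 11.49 against 12.32 and 11.77). At 5 hr both kinase probes were higher in 90/5 than in 18/1, by 2.79-fold and 3.13-fold (limma adjusted p = 0.00924 and 0.00188). With the GC trend removed these were 1.16 and 0.81 on the log2 scale (limma adjusted p = 0.0311 and 0.0644), and without array 10 the first was 1.43 (limma adjusted p = 0.0798). From 2 hr to 5 hr of 18/1 they fell by 1.33 and 1.48 on the log2 scale (limma adjusted p = 0.0178 and 0.00437), and by 0.91 and 1.13 without array 4 and 1.11 and 0.99 without array 5 (limma adjusted p = 0.221, 0.0943, 0.0745 and 0.0588). Neither drop was called with the GC trend removed, at -1.03 and -0.76 (limma adjusted p = 0.053 and 0.0808). On slide 2 the activation segment probe was 2.67-fold higher in 90/5 2 hr than in 18/1 5 hr (limma adjusted p = 0.0367, 0.0658 with the GC trend removed and 0.365 in a fit of that slide alone), and the C-terminal probe 2.04-fold (limma adjusted p = 0.0772). The activation segment call was also lost at a log2 difference of 0.97 without array 7 and 1.19 without array 5 (limma adjusted p = 0.242 and 0.133), and at 1.42 without array 1, 2, 3, 4 or 10 (limma adjusted p between 0.0558 and 0.0742). The interaction was called for the C-terminal probe (2.10 ± 0.55, limma adjusted p = 0.00407) and not for the activation segment probe (1.39 ± 0.62, limma adjusted p = 0.0722). With the GC trend removed the first of these was 1.02 (limma adjusted p = 0.0987).

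The truncated-tail probe was not lower. It read 7.77, 7.99, 8.10 and 7.67 in the unstimulated samples and 8.14, 7.84, 9.20 and 9.17 in 18/1 5 hr. Only array 6 lay above the unstimulated range in both colours. The log2 difference was 0.71 (95% interval 0.02 to 1.4, limma adjusted p = 0.0881), and it was 1.30 without array 5 (limma adjusted p = 0.0022) and 0.11 without array 6 (limma adjusted p = 0.765). The 4 samples of 90/5 2 hr (8.42, 8.57, 8.78 and 8.25) lay above all unstimulated ones, with a log2 difference of 0.62 (-0.07 to 1.31, limma adjusted p = 0.276). Its interaction was called with the opposite sign to that of the kinase probe (-1.29 ± 0.47, limma adjusted p = 0.0295), was -1.10 with the GC trend removed (limma adjusted p = 0.0465) and was -0.70 without array 6 (limma adjusted p = 0.116). The call was also lost without array 3, 4, 9 or 10, at -1.16 to -1.42 (limma adjusted p between 0.061 and 0.098). For the 3′ UTR probe of the truncated form the sign depended on the array. It read 8.74, 9.24, 8.20 and 8.14 in 18/1 5 hr and between 8.63 and 9.08 in the unstimulated samples (log2 -0.26, 95% interval -1.03 to 0.52, limma adjusted p = 0.609). The difference was -0.67 without array 5 and 0.15 without array 6 (limma adjusted p = 0.14 and 0.733). The spot of the 3′ UTR probe was marked as non-uniform in both colours of array 5. The 2 truncated probes thus differed on the arrays of 18/1 5 hr, with array 6 high for one and low for the other.

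To compare the forms directly, the truncated probe was subtracted from the mean of the 2 kinase probes within each sample, a comparison chosen after the values were seen. Only the change of this quantity between conditions can be read, since signals of different probes are not on one scale. Against the truncated-tail probe it was 3.43 ± 0.11 (SD, n = 4) in the unstimulated samples and 0.85 ± 0.29 in 18/1 5 hr, a change of -2.59. The values of the 2 groups did not overlap. The 2 samples of an array are not independent, so the comparison was made over array means, and with 2 arrays against 2 the two-sided exact permutation p cannot go below 0.333, which it was here. The changes are therefore a description. The change in 18/1 5 hr was -2.82 without array 5 and -2.35 without array 6. In 90/5 2 hr it was -1.28 (-1.79 without array 7 and -0.78 without array 8), in 18/1 2 hr -0.51 (-0.15 without array 3 and -0.87 without array 4), and in 90/5 5 hr -0.32. Against the 3′ UTR probe of the truncated form the change in 18/1 5 hr was -1.62. It rested mainly on array 5, whose spots of that probe were the non-uniform ones: array 5 read 0.39 and -0.22 and array 6 1.69 and 1.56, and without array 5 the change was -0.85. Against the same probe it was 0.03 in 90/5 2 hr, -0.39 in 18/1 2 hr and -0.23 in 90/5 5 hr. The kinase probes had 43.3% and 50% GC and the tail probe 38.3%. With the GC trend removed the changes against the tail were -1.97 in 18/1 5 hr, -1.01 in 90/5 2 hr, -0.49 in 18/1 2 hr and -0.39 in 90/5 5 hr.

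**Figure D2:**
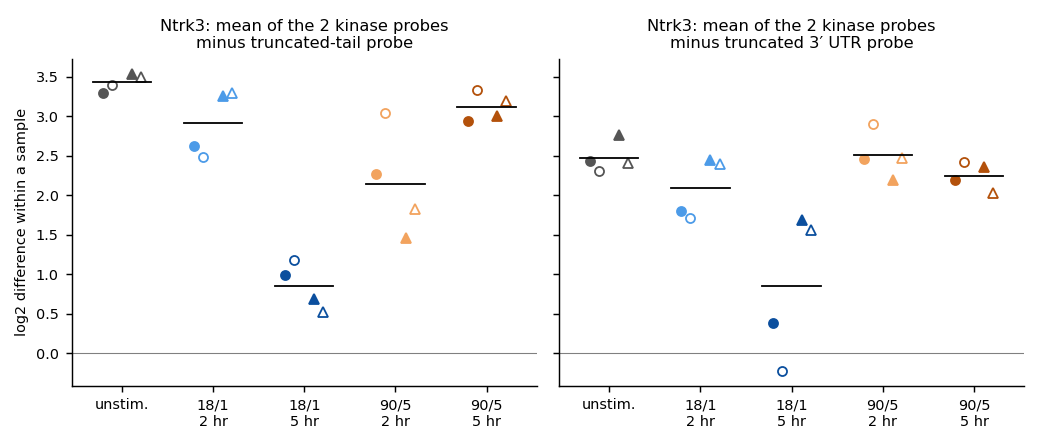
Mean log2 signal of the 2 kinase probes of Ntrk3 minus that of a truncated-form probe in each sample (vertical axis) by condition (horizontal axis), left against the tail probe and right against the 3′ UTR probe; circles and triangles are the 2 arrays of a condition, filled Cy3 and open Cy5, and bars are means. In 18/1 5 hr the values against the tail lie between 0.53 and 1.18, below the unstimulated range of 3.30 to 3.54.

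Ngfr, the p75 receptor that binds all neurotrophins, was measured by 10 spots per array and gave a very bright signal. It ran from 16.23 to 16.34 in the unstimulated samples, from 15.52 to 16.19 in 18/1 5 hr, from 15.76 to 16.15 in 90/5 2 hr, from 16.05 to 16.36 in 18/1 2 hr and from 15.84 to 16.69 in 90/5 5 hr. In 12 of the 20 samples all 10 spots were saturated: in both colours of arrays 5 to 8, which held 18/1 5 hr and 90/5 2 hr, and in Cy5 of arrays 1 to 4, which held the unstimulated and the 18/1 2 hr samples. The readings of those samples stood at the scanner's upper limit before normalization, so neither their differences from other samples nor the lack of a call can be read as a level of Ngfr, and no fold is given.

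Sort1, the sortilin gene, had no called difference with all samples fitted. Its 3′ UTR probe read 9.04, 8.85, 8.77 and 8.82 in the unstimulated samples and 8.59, 8.42, 9.27 and 9.40 in 18/1 5 hr, where array 5 lay below and array 6 above the unstimulated range. The log2 difference was 0.05 (95% interval -0.52 to 0.62, limma adjusted p = 0.901). In 90/5 5 hr all 4 samples (8.37, 8.80, 8.58 and 8.34) were lower than all 4 of 90/5 2 hr (8.93, 9.20, 9.33 and 9.36), by 0.68 on the log2 scale (-1.25 to -0.11, limma adjusted p = 0.134). The probe for another transcript split the arrays of 18/1 5 hr the other way, 8.20 and 8.37 on array 5 against 6.69 and 6.69 on array 6, around unstimulated values of 7.88 to 8.07. On array 5 its spot was marked as non-uniform in both colours, and on array 6 it was not well above background in either. The difference over all 4 samples was -0.51 (-1.20 to 0.17, limma adjusted p = 0.225), and without either array it rests on spots of one of these kinds. Without array 5 it was -1.31 and called (limma adjusted p = 0.00021), and without array 6 it was 0.28 (limma adjusted p = 0.241). In 90/5 2 hr this probe read 7.35, 7.33, 7.52 and 7.54, below all unstimulated samples, with both spots of array 8 marked as non-uniform. That log2 difference, -0.56, was called without array 5 or 6 (limma adjusted p = 0.0255 and 0.0289) and not with all samples. The splice-junction probe ran from 6.48 to 7.40, was well above background in 12 samples and was not tested.

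**Figure D3:**
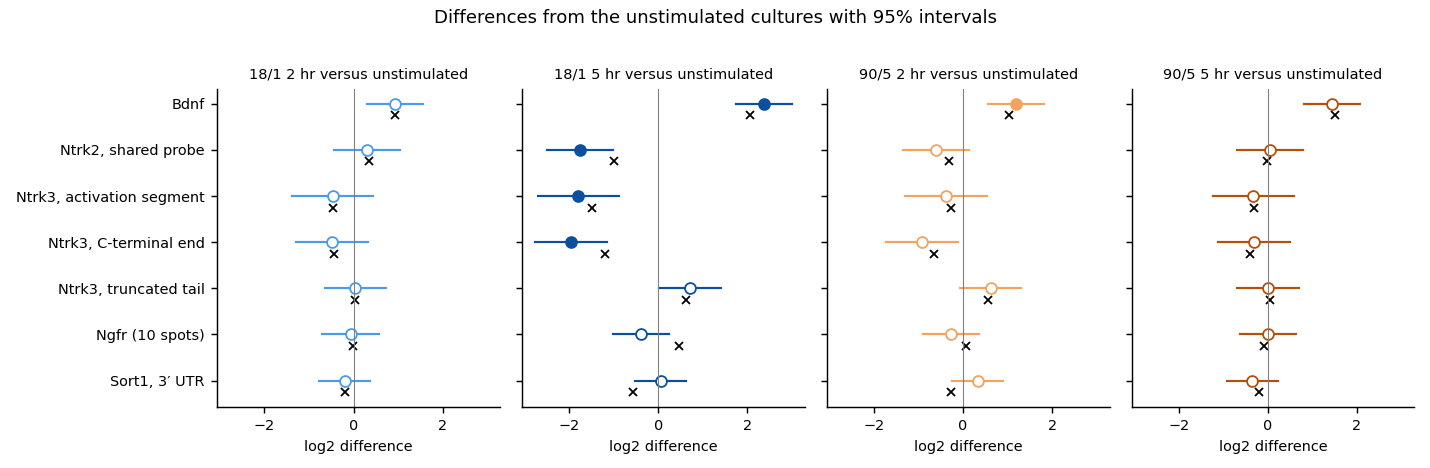
Log2 difference from the unstimulated cultures (horizontal axes) for the 7 tested probes (vertical axis) in the 4 stimulated conditions; lines are 95% intervals, filled circles passed the adjusted threshold, and crosses are the values with the GC trend removed. Ngfr was saturated in 12 samples and its points show no level. Bdnf lies to the right of 0 in all 4 panels, and Ntrk2 and both kinase probes of Ntrk3 lie to the left in 18/1 5 hr alone with filled circles.

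**Figure D4:**
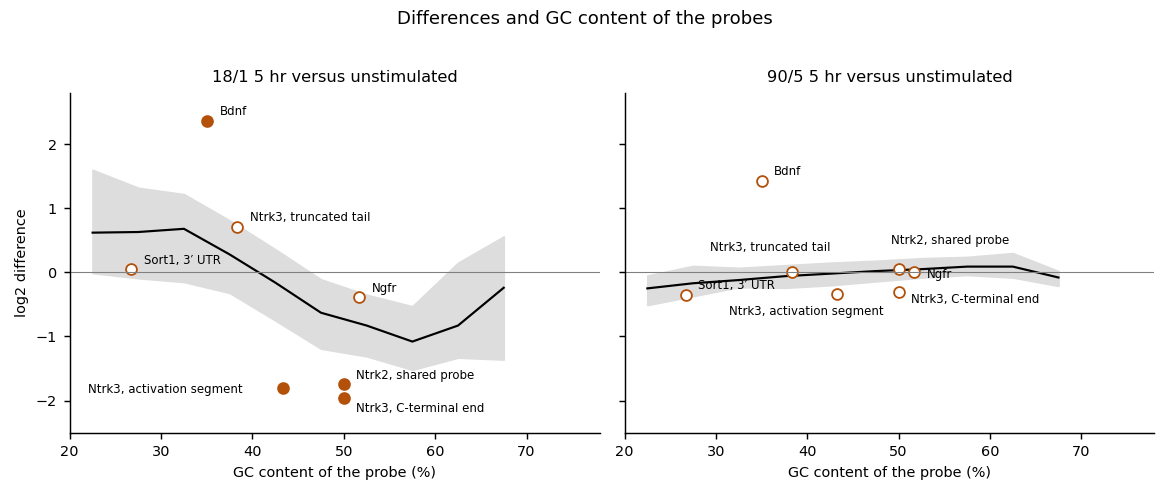
Log2 difference from the unstimulated cultures (vertical axis) against probe GC content (horizontal axis) in 18/1 5 hr (left) and 90/5 5 hr (right); the line is the median and the band the quartiles of all tested probes in bins of 5% GC with at least 20 probes, and circles are the member probes, filled where called. In 18/1 5 hr the called probes lie outside the band of their bin, Bdnf above it and Ntrk2 and the kinase probes of Ntrk3 below it.

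Other cell types of the cultures were followed by their markers, since truncated Trk receptors and p75 are also made outside neurons. Fewer cells of a type and less RNA per cell cannot be told apart in these samples. Over the 10 Schwann cell markers the mean log2 signal was 9.27 to 9.66 in the unstimulated samples and 9.15 to 9.25 in 18/1 5 hr, with 8 to 9 and 5 to 7 markers well above background. It was 9.17 to 9.30 in 90/5 2 hr, the other condition of slide 2, also with 5 to 7 markers well above background. The markers did not move as one: Mag read 7.49 to 7.62 in the unstimulated samples and was not well above background in 18/1 5 hr, while Pmp22 read 11.73 to 12.97 and, without overlap, 13.53 to 14.32. Both were named after their values were seen. Erbb3 was not above background in any condition. Over the 3 satellite glia markers the range was 8.54 to 9.35 in the unstimulated samples and 8.23 to 9.50 in 18/1 5 hr. Over the 6 fibroblast markers, all well above background, it was 10.38 to 11.49 and 11.62 to 12.04, and 1 of the 4 tested was called higher. The 3 endothelial markers read 8.67 to 9.16 and 7.33 to 7.59, and the 1 tested was called lower. In 90/5 2 hr they read 7.58 to 8.44, also without overlap with the unstimulated samples, and the 1 tested was not called. The 4 macrophage markers read 8.90 to 9.13 and 8.82 to 9.36, with no call in the 1 tested. Of the 12 sensory neuron markers, 7 were saturated in all 4 samples of 18/1 5 hr and 3 in some of them, so the list could show no drop there. The 2 that were saturated in none, Scn9a and Avil, read 9.12 to 9.47 and 13.55 to 14.32 in the unstimulated samples and 8.64 to 9.83 and 12.25 to 12.86 in 18/1 5 hr, where Avil did not overlap. Others went the other way: of the 11 sensory neuron markers tested, 1 was called higher and 0 lower in 18/1 5 hr. Tac1 read 14.32 to 15.23 in the unstimulated samples and, saturated, 15.57 to 16.24 in 18/1 5 hr, without overlap. Between the patterns at 5 hr, 3 of the 4 fibroblast markers tested were called lower in 90/5, and the 1 endothelial marker tested was called higher. Of all probes, 45.9% were called in that comparison and 44.9% in 18/1 5 hr against unstimulated cultures. The part of the marker differences in the results for Bdnf and the receptors was not tested.

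Of the 50 other genes of neurotrophin signalling examined (ligands and receptors, processing enzymes, Trk adaptors, p75 partners, the enzymes that cleave p75, and endocytosis proteins), 32 could be tested. Of these, 15 of 32 were called in 18/1 5 hr against unstimulated cultures, 3 higher and 12 lower, a share of 46.9% beside 44.9% of all probes, so the list did not stand out by its number of calls. Its median log2 difference was -0.51, and that of all probes -0.26. Called genes numbered 12 of 32 with the GC trend removed, 6 higher and 6 lower, where 35.5% of all probes were called. Only 2 of 32 were called in 90/5 2 hr, 6.25% beside 6.00%, and in 18/1 2 hr and 90/5 5 hr none was.

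Among those that were higher in 18/1 5 hr, Rapgef1, an exchange factor downstream of Trk receptors, and Pcsk2, a proprotein convertase, rose by 2.30-fold and 2.20-fold (limma adjusted p = 0.0107 and 0.0339). These were 2.19-fold and 1.77-fold with the GC trend removed, and only Rapgef1 passed (limma adjusted p = 0.0258 and 0.114).

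Among the drops of the list in 18/1 5 hr were those of Shc3, a neuronal Trk adaptor, and of Pcsk7, a proprotein convertase. They were 4.60-fold and 4.33-fold, with limma adjusted p of 1.33e-05 and 1.63e-05. Shc3 was also the called drop of the list in 90/5 2 hr, by 2.06-fold (limma adjusted p = 0.0375). The drops in 18/1 5 hr were 2.24-fold for Shc3 and 2.72-fold for Pcsk7 with the GC trend removed (limma adjusted p = 0.000783 and 0.000158), and Shc3 did not pass in 90/5 2 hr (log2 -0.60, limma adjusted p = 0.14).

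The genes whose log2 signal followed a member most closely over the 20 samples were sought among 8922 named genes, as a description, since all share slides and arrays. For Bdnf they were 2410127L17Rik, Tcf4 and Gramd1c, with Pearson's r of 0.95, 0.916 and 0.896. For the shared Ntrk2 probe they were Nhej1, Rnu12 and Gm4943 (r of 0.981, 0.975 and 0.974), and for the C-terminal Ntrk3 probe Lrrn2, Brd3 and Foxk1 (r of 0.973, 0.965 and 0.963). None are given for Ngfr, whose signal was saturated in 12 samples. For the 3′ UTR probe of Sort1, C2cd2 and Ctdsp2 were among them (r of 0.90 and 0.863). Most of these relations were also present among the samples within conditions, with r between 0.828 and 0.967 except for 2410127L17Rik (0.654) and Tcf4 (0.537).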

How the data were processed

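RNA of DRG cultures was labelled with Cy3 or Cy5 and hybridized in pairs of the same condition to Agilent mouse arrays. The deposited values were spot intensities from Agilent Feature Extraction (version 10.7.1.1 for slide 1, 10.7.3.1 for slides 2 and 3), not yet normalized; the columns that the authors' software had already processed were not used. Mean and background signals were corrected by normexp (offset 50), normalized by loess within arrays and quantile-matched in average intensity between arrays with limma 3.58.1 in R 4.3.3, controls weighted 0. The channels were split into 20 log2 signals. The spots of a probe that met the filter of its fit were averaged, or all its spots where it was in no fit. A probe counted as well above background in a sample where at least 1 of all its spots was. The model held the 5 conditions and the colour, with the array as a random block (consensus correlation 0.536; 0.642 for the fit of 23905 probes), and Benjamini-Hochberg adjustment over all probes tested. The model was tested on simulated data with the spread and array correlation of these samples, but without slide effects, GC trend or saturation. Of 50 probes each, 26% and 34% were called at a true log2 change of -1 and 1. At -2 and 2 these shares were 88% and 86%.

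Named genes were all probes of the members, up to 3 called genes per direction of the pathway list by size in each comparison with unstimulated cultures, and the 3 genes most like each member's brightest probe. Some genes that this rule names are not reported here. The members and lists were chosen with earlier results of these data known. Coordinates are those of the array's annotation (mm9), and promoter windows those of RefSeq on GRCm38.p6. Which colour held which replicate was not settled for 18/1 5 hr and 90/5 2 hr, so samples are named by array and colour. Alternatives covered 20 other settings and each of the 20 samples and 10 arrays left out.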

Additional observations from a re-analysis of the deposited data

Results flagged for a closer look

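In 3 of the 65 groups of 4 samples examined, 1 sample lay far from the other 3, by a gap over range above Dixon's critical value, and chance alone gives this in about 1 group in 20. For Ntf3 in 18/1 2 hr the gap was 0.88 of the range, the Cy5 sample of array 4 reading 6.91 and the others 6.59 to 6.62. For the full-length 3′ UTR probe of Ntrk2 in 90/5 5 hr it was 0.901, the Cy5 sample of array 9 reading 7.71. For the splice-junction probe of Sort1 in unstimulated cultures it was 0.898, the Cy3 sample of array 1 reading 7.07. These are dim probes. The change between 2 hr and 5 hr differed between the patterns for 4 probes by the interaction term in limma: Ntrk2 shared by 2.71, the C-terminal end of Ntrk3 by 2.10, the Ntrk3 truncated tail by -1.29 and Bdnf by -1.20 on the log2 scale. This term was called for 45.0% of all probes. The Bdnf call was lost when array 3, 4, 6, 8 or 10 was left out and that of the truncated tail when array 3, 4, 6, 9 or 10 was, and with the GC trend removed those of Bdnf and of the C-terminal end were lost.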

How the results depend on the processing

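The 4 calls of 18/1 5 hr against unstimulated cultures held in every alternative that had a value for the probe. The activation segment probe had values in 16 other settings and each of the rest in 17. The log2 differences were 1.84 to 2.59 for Bdnf, -2.35 to -0.99 for the shared Ntrk2 probe, and -2.29 to -1.49 and -2.61 to -1.20 for the activation segment and C-terminal probes of Ntrk3. Over all comparisons, called probes kept their call in 824 of 930 refits and lost it in 106, with no reversal. Uncalled ones became called in 111 of 3060, and 1 other was called with its sign reversed. With arrays or samples left out, the number called among the 7 probes tested in all samples, with the share of all probes called in the same refits, was 0 to 0 in 18/1 2 hr (0.0165% to 0.033%), 4 to 5 in 18/1 5 hr (24.8% to 55.3%), 0 to 3 in 90/5 2 hr (0.766% to 26.9%) and 0 to 1 in 90/5 5 hr (0.0165% to 0.231%) against unstimulated cultures, 0 to 1 at 2 hr (0.643% to 24.7%) and 2 to 6 at 5 hr (32.0% to 55.9%) between patterns, 2 to 5 between times of 18/1 (25.2% to 55.5%) and 0 to 2 of 90/5 (2.01% to 27.2%), 0 to 5 for 90/5 2 hr against 18/1 5 hr (0.643% to 35.3%), and 2 to 6 for the interaction (33.3% to 56.4%). The 3 probes that met the filter only in at least 1 condition are not in these numbers. Of them, Sort1 A_55_P2076683 gained calls without array 5, among them 18/1 5 hr, patterns at 5 hr and the interaction (limma adjusted p = 0.00021, 0.000143 and 6.17e-05), and Ntrk3 A_52_P500274 gained that of the interaction (limma adjusted p = 0.0427). The dim Ntrk2 A_51_P393454 was higher in 90/5 than in 18/1 at 5 hr by 0.51 with all samples (limma adjusted p = 0.0653). It gained that call without array 6, 7 or 8, at 0.61, 0.51 and 0.51 (limma adjusted p = 0.0217, 0.0296 and 0.0288). The Sort1 probe reversed in 90/5 2 hr against 18/1 5 hr, from -0.05 to 0.75 without array 5 (range -0.85 to 0.75), which leaves only array 6, where it was not well above background.

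Other settings moved the number called among these 7 probes (10 with the filter in at least 1 condition, 13 without a filter) as follows. The share of all probes called by each is in brackets, and the cause was not tested. In 18/1 2 hr it was 3 with array quality weights (14.4%) and 1 with only the conditions compared, which is also the fit within the slide (0.115%), or by the methods' t-test (2.08%). In 90/5 2 hr it was 0 with median centring (4.43%), without a spot filter (1.37%), with means of arrays (1.63%), with only the conditions compared (3.72%) or by the methods' t-test after Benjamini-Hochberg adjustment (0.264%), 2 without the array block (21.6%) or with quality weights (16.7%), and 3 by the unadjusted t-test (20.1%). In 90/5 5 hr it was 1 without the array block (0.428%), with quality weights (24.9%), with the GC trend removed (0.0824%), with only the conditions compared (0.33%), without slide 2 (2.12%) and by the t-test (5.17%). Between patterns at 2 hr it was 1 without the array block (16.9%) or with quality weights (13.9%) and 3 by the t-test (16.5%), and at 5 hr 2 without a spot filter (26.8%) or with the GC trend removed (34.7%). Between times it was 2 in 18/1 with the GC trend removed (35.8%) or by the adjusted t-test (36.7%), and in 90/5 1 with median centring (7.61%) or no array block (21.9%) and 2 by the t-test (17.0%). For 90/5 2 hr against 18/1 5 hr it was 1 with the filter in 1 condition (8.88%), with the GC trend removed (7.50%) or by the t-test (16.9%), and 0 without a filter (6.31%), with means of arrays (0%), with quality weights (4.65%), within the slide (0%) or by the adjusted t-test (0.00824%). For the interaction it was 2 without a filter (26.2%), with means of arrays (40.8%), with the GC trend removed (34.1%) or with only the conditions compared (38.9%). Settings not named here also moved it. Over all other settings the number ran from 3 to 5 in 18/1 5 hr against unstimulated cultures and from 2 to 5 between patterns at 5 hr. It ran from 2 to 5 between times of 18/1 and from 2 to 6 for the interaction. Leaving out outlier spots, and removing the GC trend for the other genes of the pathway, were chosen after seeing the data. Median centring moved the median of all probes in 18/1 5 hr from -0.26 to -0.84.

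Replicate numbers of the labels were not taken to pair the samples: same-numbered samples, all of the same colour, deviated together with r of -0.07 to 0.70 (mean 0.32), over 0.1 in 9 of 12 pairs, against -0.30 to 0.49 (mean 0.12), over 0.1 in 8 of 12, for other pairs of the same colour, and 4 of 12 samples correlated best with their own number. With the replicate block the number called in 90/5 5 hr was 1, Bdnf, at 1.43 with a limma adjusted p of 0.00128, where 2.69% of all probes were called.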
